A study of Homo sapiens with 12 samples.

Results

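The comparison described here is that of MDA-MB-231 cells with the siRNA mix labelled siYAP/TAZ#1 (mix 1) against the same cells with control siRNA. Members were the arrays titled replica A to D of each of these 2 groups, 8 of the 12 arrays of the series; the other 4 arrays carried a second siRNA mix against the same mRNAs (siYAP/TAZ#2, mix 2). MDA-MB-231 is an established human breast cancer line with mesenchymal traits that lacks the oestrogen and progesterone receptors. Cells were seeded sparsely on day 1 in DMEM/F12 with serum, transfected on day 2 with siRNA at 33 nM using RNAi MAX, given fresh medium on day 3 and harvested on day 4. All groups, controls included, went through the same transfection. The 4 biological replicates of a group were plated and handled in parallel, so the p-values measure the spread between parallel cultures of 1 line. Total RNA was hybridised to Affymetrix U133 Plus 2.0 arrays, and levels are the deposited log2 RMA values, a scale on which a difference of 1 is 2-fold. Each gene was represented by the probe set (a group of oligonucleotides against 1 transcript) with the highest mean over all 12 arrays, which gave 13225 genes above the filter value of 5.46 log2.

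YAP (gene YAP1) and TAZ (gene WWTR1) are related transcriptional coactivators. They have no DNA-binding domain of their own and reach their target genes mostly through the TEAD transcription factors. The LATS kinases of the Hippo pathway phosphorylate them and keep them in the cytoplasm. A stiff matrix, a spread shape and low cell density favour their entry into the nucleus. In breast cancer cells they are known for driving proliferation and growth on their own, and CCN1, CCN2 and ANKRD1 are their standard reporters. The question of the series is which transcripts depend on the pair in this line.

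The promoters of 3 genes among those with the strongest falls are shown because they carry the core of the TEAD binding motif, GGAATG, which stands in capitals on either strand. Each sequence is the 250 bases before the start of the gene in RefSeq's GRCh38.p14 annotation, read 5′ to 3′ along the gene's own strand. CCN2 lies on the minus strand (chr6:131951373-131951622), ANKRD1 on the minus strand (chr10:90921088-90921337) and DKK1 on the plus strand (chr10:52314031-52314280).
CCN2: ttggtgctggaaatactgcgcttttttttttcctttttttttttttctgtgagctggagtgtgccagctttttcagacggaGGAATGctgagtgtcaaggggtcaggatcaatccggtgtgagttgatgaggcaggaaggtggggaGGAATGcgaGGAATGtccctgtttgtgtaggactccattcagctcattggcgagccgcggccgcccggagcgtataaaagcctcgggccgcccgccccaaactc
ANKRD1: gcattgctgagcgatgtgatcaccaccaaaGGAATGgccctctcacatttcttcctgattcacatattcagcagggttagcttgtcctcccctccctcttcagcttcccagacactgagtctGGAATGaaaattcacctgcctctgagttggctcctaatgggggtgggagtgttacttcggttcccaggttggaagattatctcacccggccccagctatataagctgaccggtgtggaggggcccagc
DKK1: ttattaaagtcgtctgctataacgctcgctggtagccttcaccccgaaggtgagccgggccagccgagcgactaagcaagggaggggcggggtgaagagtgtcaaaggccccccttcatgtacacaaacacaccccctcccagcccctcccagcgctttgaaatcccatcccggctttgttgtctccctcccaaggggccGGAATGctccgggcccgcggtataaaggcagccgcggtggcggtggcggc
The script found 3 matches before CCN2, 2 before ANKRD1 and 1 before DKK1. Of 28 direct targets of YAP and TAZ with a promoter in the table, 10 (35.7%) held the letters GGAATG or their complement, against 9.57% of the 10660 tested genes with a promoter and 12% of all 27305 promoters. Among the 20 genes with the largest falls, 4 of the 14 with a promoter held them (28.6%), and among the 20 with the largest rises 3 of 14 (21.4%). A match is a description of these letters and not a bound site.

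Replicate arrays of a group correlated across the 13225 tested genes at 0.9962 to 0.9981 in control and 0.993 to 0.9972 with mix 1. Mix 1 arrays correlated with control arrays at 0.9151 to 0.9257. Array medians ran from 5.69 to 5.75 log2 in control and from 5.71 to 5.78 with mix 1 (exact two-sided permutation p = 0.343, where 4 arrays against 4 allow no p below 0.0286). RMA brings arrays to nearly 1 distribution, so close medians follow from the processing. The gap between 3′ and 5′ probe sets of ACTB, a sign of RNA quality, was 1.38 to 1.99 log2 in control and 1.61 to 2.24 with mix 1 (exact p = 0.314). The labelled line was checked on its markers. VIM (14.29 log2), CD44 (12.22), AXL (13.24) and CAV1 (13.14) were bright in control, as is known of this line. Of the markers chosen as low, PGR (3.56) and CDH1 (3.98) lay below the filter value, and CLDN3 (6) and ESR1 (6.31) passed it. ERBB2 (7.76), CLDN4 (7.61) and CLDN7 (8.31), also chosen as low, lay well above it.

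Both targeted mRNAs were lower with mix 1. YAP1 read 11.26, 11.19, 11.03 and 11.16 log2 in control replicates A to D and 8.44, 8.42, 7.67 and 8.08 with mix 1, which left 12.4% of the control level (log2 change -3.01, SE 0.14, limma adjusted p = 6.95e-11). WWTR1 read 11.49, 11.45, 11.27 and 11.39 in control and 9.23, 9.25, 8.78 and 9.0 with mix 1, which left 19.8%. No mix 1 array reached the control range for either gene, and on these probe sets, the brightest of each gene, replicate C had the least. The 2 further YAP1 probe sets fell by 3.09 and 2.65 on the log2 scale, and those of WWTR1 by 2.02 and 1.59. The dimmest probe set of WWTR1 fell least, from 7.41 to 7.56 in control to 5.66 to 6.13 with mix 1, with 33.2% left. In RNA from whole cultures, fewer cells that express a gene and less RNA per cell cannot be told apart.

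**Figure D1:**
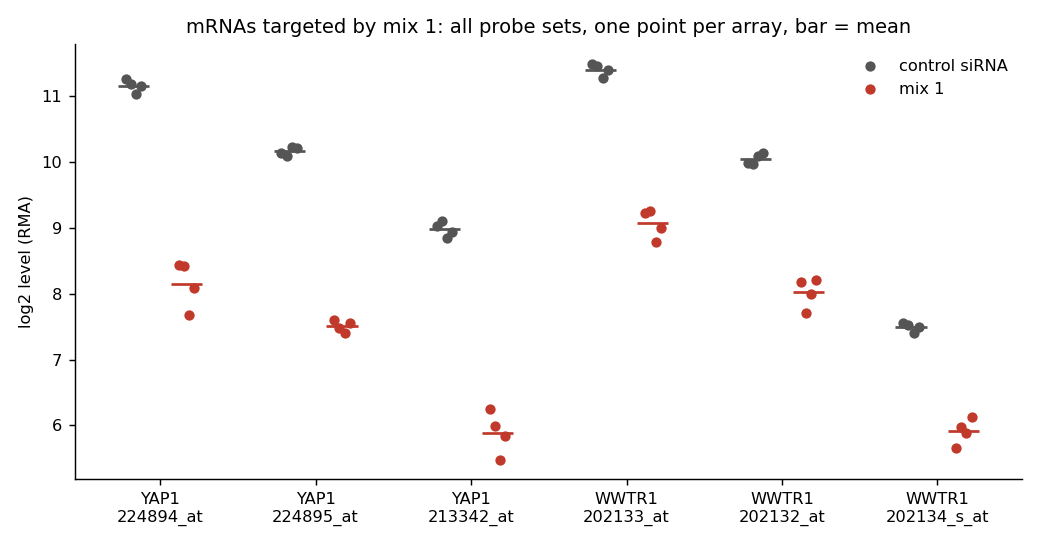
Log2 levels of the 3 probe sets of YAP1 and the 3 of WWTR1 in each control (grey) and mix 1 (red) array; short bars are means of 4 arrays. The groups are separate in all 6 probe sets, with 33.2% of control left for the dimmest WWTR1 probe set and 11.7% for the dimmest of YAP1.

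Of 13225 genes, 4600 (34.8%) were higher and 4278 (32.3%) lower with mix 1 at a limma adjusted p below 0.05, or 67.1% in all. Most of these changes were small: the median absolute change over all genes was 0.36 log2, and the median SE was 0.079. At least 2-fold changes were called for 1070 genes upward (8.09%) and 1095 downward (8.28%). At 4-fold or more the count was 217 genes higher and 169 lower, and at 8-fold or more 61 higher and 21 lower. The median change over all genes was 0.005 log2, with 5th and 95th percentiles of -1.31 and 1.29. These shares and this median stand as the background for each gene list below. The 4 mix 1 arrays lay wholly outside the control range for 8373 genes (63.3%).

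**Figure D2:**
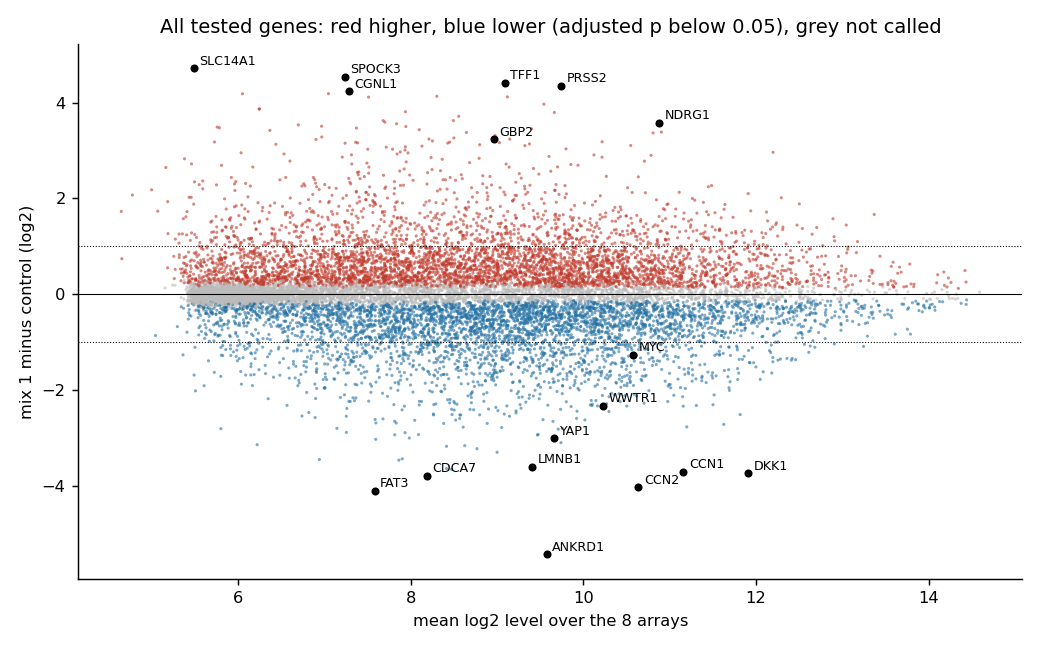
Log2 change with mix 1 against control for each tested gene, plotted against its mean log2 level over the 8 arrays; red genes are higher and blue genes lower at an adjusted p below 0.05, and dotted lines mark 2-fold. ANKRD1 lies alone at the bottom (-5.44), and the rises end at SLC14A1 (4.72).

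Standard reporters of YAP and TAZ activity had some of the largest falls of the whole array. ANKRD1, a cardiac ankyrin repeat protein, read 12.28, 12.36, 12.27 and 12.27 log2 in control and 7.07, 6.60, 6.97 and 6.79 with mix 1. CCN2, a secreted matrix-associated growth regulator, read 12.65, 12.53, 12.72 and 12.73 in control and 8.81, 8.37, 8.56 and 8.74 with mix 1 (-4.04, SE 0.09, adjusted p = 6.94e-14). CCN1, a close relative of CCN2 that binds integrins, went from 12.93 to 13.11 in control to 9.21 to 9.43 with mix 1, and its second probe set fell by 4.19. The control arrays of each gene lay close together, and no mix 1 array came within 3 log2 units of them. Among 36 measured direct targets, 24 were lower and 7 higher, with a median change of -0.77 log2 against 0.005 for all genes; 15 were lower by at least 2-fold. Part of this list comes from studies of this same cell line, so its direction is not independent evidence. Other members that fell were FJX1, a Golgi kinase that acts on Fat cadherins (-2.52), and the angiomotin AMOTL2 (-2.25). The members with the largest rises were the receptor TGFBR2 (1.44), the prostaglandin synthase PTGS2 (1.03) and the cytokine receptor LIFR (0.94).

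The partners of YAP and TAZ moved in both directions. TEAD4 fell (-0.91, SE 0.10), while TEAD1 (0.34) and TEAD2 (0.91) rose; TEAD1 read 12.47 to 12.51 in control and 12.78 to 12.93 with mix 1. With all probe sets of a gene averaged, TEAD1 no longer passed (0.16, adjusted p = 0.0742). Of the VGLL cofactors, which compete for TEAD factors, VGLL4 rose (2.17, with a probe set that may bind related transcripts) and VGLL3 fell (-1.13). Among 24 measured Hippo kinases and upstream regulators, 5 were higher and 11 lower (median -0.08). The kinase LATS1 did not pass (-0.04, adjusted p = 0.835), and LATS2 fell only slightly (-0.135, adjusted p = 0.0401). The giant cadherin FAT3 read 9.65, 9.71, 9.64 and 9.55 in control and 5.86, 5.62, 5.21 and 5.44 with mix 1, a fall of 4.11 (SE 0.12). Next to it stood WWC1 (-1.41), WWC3 (-1.36) and the tumour suppressor NF2 (-0.94), against rises of the kinases MAP4K4 (1.62) and TAOK1 (0.70).

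The 20 largest falls were of several kinds. Among secreted factors, the Wnt antagonist DKK1 read 13.78, 13.80, 13.76 and 13.79 in control and 10.22, 9.91, 10.06 and 9.98 with mix 1 (-3.74, SE 0.07, adjusted p = 3.54e-14). The cytokine IL11 went from 10.23 to 10.50 down to 6.99 to 7.29, and KISS1, the precursor of kisspeptin, from 9.51 to 9.68 down to 5.90 to 6.47. The chromatin genes in this set were CDCA7 (-3.80) and UHRF1 (-3.10), which take part in keeping DNA methylation, and LMNB1 (-3.61), a lamin of the nuclear envelope. Genes of the cell cycle and recombination were E2F8 (-3.44), GINS2 (-3.30), MND1 (-3.18) and CCNE2 (-3.17). The rest were the phosphodiesterase PDE1C (-3.66), the RNA-binding protein RBM24 (-3.64), the junctophilin JPH1 (-3.45), the carbonic anhydrase CA2 (-3.15), PRR16 (-3.03) and YAP1 itself. With mix 1 the means of JPH1 (5.22) and CA2 (4.65) were below the filter value, near background, so the size and rank of their falls are uncertain. PRR16 had the widest spread among them, from 5.48 to 6.63 with mix 1, against a control range of 8.85 to 9.29.

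The 20 largest rises were also of several kinds. The trefoil peptide TFF1, a mucosal secretory product, read 7.13, 6.78, 6.88 and 6.74 log2 in control and 11.40, 11.20, 11.35 and 11.26 with mix 1 (4.42, SE 0.08, adjusted p = 1.87e-14). TFF3 went from 6.63 to 6.74 up to 10.25 to 10.51, and the trypsinogen PRSS2 from 7.47 to 7.72 up to 11.85 to 12.01; the PRSS2 probe set may also bind related trypsinogens. For all of them the gap between the groups was at least 3 log2 units. LTBP1, which stores latent TGF-beta in the matrix, rose by 3.97, the carbonic anhydrase CA12 by 3.79 and the stress gene NDRG1 by 3.58. The integrin chains ITGA10 (3.81) and ITGA1 (3.62), the membrane-type protease MMP16 (3.59), the NADPH oxidase NOX5 (3.62), the xenobiotic and steroid hydroxylase CYP1B1 (4.12) and SLITRK6 (4.13) were measured above the filter value in all 8 arrays.

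For other genes of this set the control level was near background, so the size of the rise is uncertain. The urea transporter SLC14A1 read 3.18, 2.99, 3.48 and 2.86 log2 in control and 7.80, 7.81, 7.91 and 7.86 with mix 1. Its mix 1 arrays lay close together and over 4 log2 units above each control array. SPOCK3, a matrix proteoglycan (4.54), CGNL1, a junction protein (4.24), the lysozyme LYZ (4.19), the ligand WNT2B (3.87) and the mitochondrial kinase PDK4 (3.87) also had control means below 5.46 log2. CD96 (4.12) started at 5.35 to 5.59. PIEZO2, a mechanically gated channel, rose by 4.18 by a probe set whose name marks possible binding to related transcripts; its other probe set did not change past the threshold (0.04, adjusted p = 0.697).

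**Figure D3:**
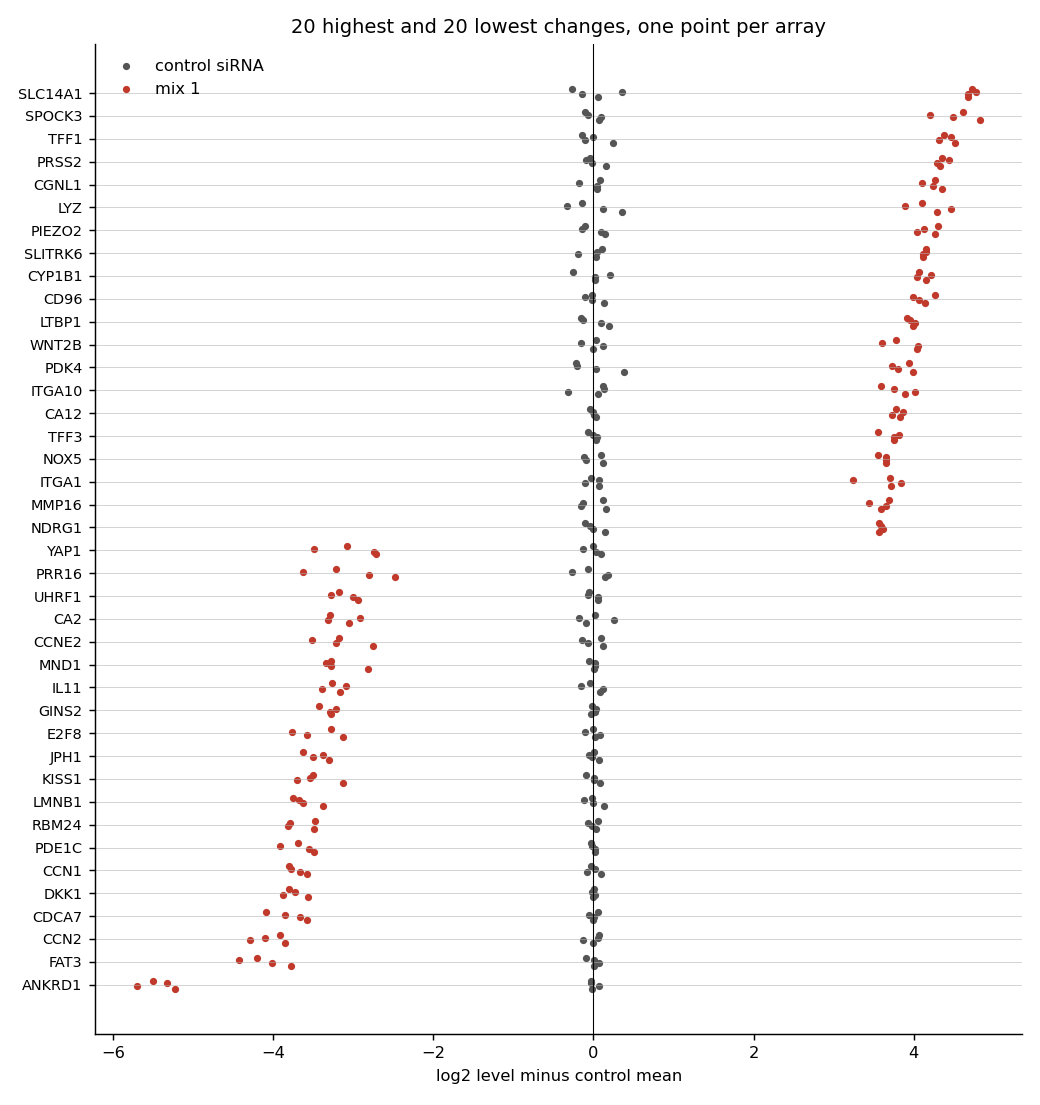
Log2 level minus the control mean for the 20 highest and 20 lowest changes, 1 point per array (grey control, red mix 1). Genes were chosen among those whose mix 1 and control arrays do not overlap, so the separation in each of the 40 genes follows from the choice. PRR16 has the widest spread among the falls.

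Genes of DNA replication fell almost without exception. Of 22 measured genes for origin licensing and the MCM helicase, 21 were lower (19 of them at least 2-fold), with a median of -1.95 log2. GINS2, a subunit of the replicative helicase, read 10.62, 10.67, 10.68 and 10.64 in control and 7.38, 7.36, 7.44 and 7.22 with mix 1 (-3.30, SE 0.08). CDC45, its partner in the helicase, fell by 3.00, the licensing factor CDC6 by 2.63 and MCM10 by 2.65. The exception was ORC4 (0.18), whose call was lost and whose sign turned without shared probe sets (-0.09, adjusted p = 0.282). All 27 measured genes of the replication fork were lower (median -1.57), led by the checkpoint mediator CLSPN (-2.69), WDHD1 (-2.60), the primase PRIM1 (-2.52) and TIPIN (-2.42). PCNA, the sliding clamp, went from 12.48 to 12.66 in control to 10.81 to 11.15 with mix 1. Of 22 genes of homologous recombination and Fanconi repair, 21 were lower (median -1.64), among them the nuclease EXO1 (-2.94) and the helicase BLM (-2.80), and none was higher.

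Enzymes that make the building blocks of DNA moved the same way. Of 23 measured genes of nucleotide synthesis, 20 were lower (median -1.36), including thymidylate synthase TYMS (-2.52), PFAS of purine synthesis (-2.43), the ribonucleotide reductase subunit RRM2 (-2.34) and the CTP synthase CTPS1 (-2.25). TYMS read 13.04 to 13.09 in control and 10.46 to 10.68 with mix 1. The 3 higher genes were IMPDH1 (0.87), RRM2B (0.56), the ribonucleotide reductase subunit that p53 induces, and CTPS2 (0.50), which had the opposite sign with its probe sets averaged (-0.11, adjusted p = 0.136). The arrays of RRM2B overlapped between the groups, and its call was lost on the C and D arrays alone (0.36, adjusted p = 0.141). Of 15 enzymes of serine, one-carbon and polyamine metabolism, 13 were lower (median -1.30), with SHMT2 (-1.86) and MTHFD2 (-1.82) of the mitochondrial folate pathway and the polyamine enzymes SRM (-1.91) and ODC1 (-1.65). SAT1, which breaks polyamines down, rose by 2.24.

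Genes of mitosis were lower as well. Of 33 genes of the kinetochore, the spindle checkpoint and condensin, 32 were lower (29 at least 2-fold, median -1.80), led by SPC25 (-2.93), ZWINT (-2.77) and NCAPH (-2.55); MAD1L1 was the only one higher (0.60). All 25 mitotic kinesins and kinases were lower (median -1.72). KIF23, a kinesin of cytokinesis, went from 10.94 ± 0.05 (SD, n = 4) in control to between 7.85 and 8.26 with mix 1 (-2.93, SE 0.10), the kinase AURKB from 9.63 to 9.83 to 7.14 to 7.45, and CDC20, which activates the anaphase-promoting complex, from 12.61 to 12.73 to 10.24 to 10.51. In each of these genes the highest mix 1 array lay at least 2 log2 units below the lowest control array.

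The promoters of KIF23 (plus strand, chr15:69414099-69414348) and CDC20 (plus strand, chr1:43358731-43358980) show the letter pattern shared by many late cell cycle genes. Capitals mark the cell cycle homology region TTTGAA and the NF-Y box CCAAT on either strand, in the 250 bases before the RefSeq start (GRCh38.p14).
KIF23: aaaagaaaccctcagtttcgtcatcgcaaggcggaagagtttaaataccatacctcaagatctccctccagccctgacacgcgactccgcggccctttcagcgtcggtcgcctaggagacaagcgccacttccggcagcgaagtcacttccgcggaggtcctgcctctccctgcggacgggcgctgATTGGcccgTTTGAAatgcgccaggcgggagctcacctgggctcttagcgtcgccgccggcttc
CDC20: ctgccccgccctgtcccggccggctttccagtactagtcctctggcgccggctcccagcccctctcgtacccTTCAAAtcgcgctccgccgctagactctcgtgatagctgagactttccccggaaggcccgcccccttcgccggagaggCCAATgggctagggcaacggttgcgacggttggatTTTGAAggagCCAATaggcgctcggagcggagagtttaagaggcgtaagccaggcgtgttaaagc
Among the 22 mitotic kinesins and kinases with a promoter, 12 (54.5%) held TTTGAA and 18 (81.8%) held CCAAT, against 8.57% and 34.9% of the 10660 tested genes with a promoter. For the kinetochore list the shares were 27.6% and 51.7% of 29 genes. High shares were not particular to these lists: of 8 MHC class II presentation genes, 50% held TTTGAA and 87.5% held CCAAT.

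Regulators of the cycle moved in both directions. Of 19 cyclins and CDKs, 13 were lower and 5 higher. CCNE2, a G1/S cyclin, read 10.33, 10.14, 10.07 and 10.30 in control and 7.46, 6.99, 6.70 and 7.03 with mix 1; SKP2, which targets p27 for degradation, fell by 2.94, the phosphatase CDC25A by 2.41 and CDK1 by 2.33. CCNG2, a cyclin linked to cell cycle exit, rose by 2.27 and CCND2 by 1.00, while CCND1 did not pass the threshold (0.12, adjusted p = 0.155). Of 16 E2F factors and pocket proteins, 14 were lower, with E2F8 (-3.44), RB1 (-1.57) and TFDP1 (-1.47) at the front and E2F1 at -0.35; the last did not pass on the C and D arrays alone (adjusted p = 0.333). E2F7 was the only one higher (0.78), from 11.58 to 11.68 in control to 12.33 to 12.45 with mix 1. Of 6 genes in the CDK inhibitor list 3 were higher and 2 lower: p21 (CDKN1A, 1.54), p27 (CDKN1B, 1.14) and p57 (CDKN1C, 0.90) rose, and CDKN3, a CDK phosphatase (-1.66), and the inhibitor CDKN2D (-0.48) fell.

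Genes of the p53 response gave no single direction, with 13 of 22 higher and 9 lower (median 0.28). TP53INP1, a stress-induced nuclear protein, went from 7.44 to 7.69 up to 10.67 to 10.87, although 1 of its 2 probe sets changed the other way. GDF15, a secreted stress cytokine, rose by 3.20 and TP53I3 by 1.64. Against these, the nuclease AEN (-1.70) and ZMAT3 (-1.18) fell. MDM2 fell less (-0.44, adjusted p = 0.00284), and its arrays overlapped between the groups. The transcription factor MYC, a growth regulator, fell from 11.13 to 11.28 in control to 9.75 to 10.02 with mix 1. Of 11 genes of its network 5 were higher and 2 lower (median 0.11). The antagonists MXI1 (1.61) and MNT (1.13) rose, and the antagonist MXD3 fell (-0.40), although not past the threshold on the C and D arrays alone (adjusted p = 0.0741).

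In the nuclear envelope and chromatin lists the direction depended on the gene. Of 14 genes of lamins and the envelope 6 were higher and 7 lower (median -0.17). LMNB1 read 11.34, 11.21, 11.10 and 11.20 in control and 7.84, 7.59, 7.53 and 7.46 with mix 1 (-3.61, SE 0.09, adjusted p = 3.16e-13). LMNB2 (-1.90) and TMPO, a lamin-binding protein (-2.24), fell with it, while the A-type lamin gene LMNA rose by 0.99 (12.07 to 12.38 against 11.17 to 11.30 in control). The LINC complex genes SUN2 (0.93) and SUN1 (0.57), which tie the envelope to the cytoskeleton, rose. Of 27 nuclear pore and transport genes 26 were lower (median -0.94) and none was higher, led by NUP93 (-2.16). Of 21 genes of DNA methylation and polycomb, 12 were lower and 9 higher. The methyltransferase DNMT1 (-1.43), its recruiter UHRF1 (-3.10), the remodeler HELLS (-2.16) and the polycomb methyltransferase EZH2 (-1.44) fell. The 5-methylcytosine oxidases TET1 (2.41), TET2 (1.10) and TET3 (0.84) all rose, TET1 from 6.17 to 6.28 up to 8.51 to 8.79. Of 19 histone and chaperone genes, 9 were higher and 8 lower. H2BC5 (3.04) and H2AC6 (2.71) rose, measured by probe sets that may bind other histone genes, whereas H2AX (-1.65) and the replication-linked chaperones CHAF1A (-1.60) and ASF1B (-1.53) fell.

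Genes of the machinery that makes ribosomes were lower. All 28 measured ribosome biogenesis genes fell (23 at least 2-fold, median -1.46), including RRS1 (-2.44), NOP16 (-2.13) and BYSL (-1.93). RRS1 went from 11.07 to 11.23 in control to 8.46 to 8.81 with mix 1. Of 22 subunits and factors of RNA polymerases I and III, 16 were lower and 3 higher. POLR3G (-2.50), POLR1E (-2.41) and POLR1G (-2.27) fell most, and UBTF was among the higher ones (0.64), with the opposite sign when its probe sets were averaged (-0.28, adjusted p = 0.00496). Mitochondrial ribosomal proteins fell in 36 of 37 genes (median -0.74), with MRPS30 (-1.42) and MRPL19 (-1.40) first. Cytosolic ribosomal proteins changed much less: 23 of 28 were lower and none higher, yet the median was -0.24 and no member fell 2-fold. RPL3, for instance, went from 13.51 to 13.62 in control to 12.87 to 13.03 with mix 1.

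Other lists of RNA and protein handling had medians from -0.45 to -0.26 log2. Of 27 translation factors 20 were lower (median -0.45), with EIF4EBP1, a repressor of cap-dependent translation, at -1.34. Of 39 splicing factors 31 were lower (median -0.43), led by SNRPD1 (-1.64), while MBNL2 rose (0.97). Of 17 aminoacyl tRNA synthetases 15 were lower (median -0.31), with FARSB at -1.91. In the proteasome, 21 of 31 subunits were lower (median -0.26), including the nuclear activator PSME3 (-1.45). The 4 higher proteasome genes were PSMB9 (1.57), PSMB10 (1.18) and PSMB8 (1.09), the catalytic chains of the immunoproteasome, and PSME1 (0.81), a subunit of its activator.

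Interferon-stimulated genes were higher in most cases: 29 of 33 measured effectors rose (18 at least 2-fold, median 1.28) and 3 fell. The guanylate-binding protein GBP2 read between 7.24 and 7.40 log2 in control and between 10.49 and 10.70 with mix 1 (3.24, SE 0.06, adjusted p = 2.74e-14). IFI27 went from 6.39 to 6.63 up to 8.46 to 8.64, IFI35 from 7.72 to 7.98 up to 9.88 to 10.00, and IFIT1, which binds foreign RNA ends, from 9.05 to 9.22 up to 9.87 to 10.10. The rise of IFI44L (2.72) started below the filter value. The widely used member ISG15 did not pass (0.10, adjusted p = 0.194). The lower ones were IFIT5 (-0.66), HERC5 (-0.47) and OAS3 (-0.19); the last lost its call without control A, control B or mix 1 D (adjusted p = 0.0502 to 0.0624). Of 21 RNA sensors and IRF and STAT factors 18 were higher and none lower (median 0.55), among them the sensors TLR3 (1.84) and IFIH1 (1.55) and the factors IRF9 (1.42) and IRF1 (0.89).

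Promoters of IFI27 (plus strand, chr14:94110486-94110735) and IFI44L (plus strand, chr1:78620198-78620447) are shown for the interferon-stimulated response element. Capitals mark GAAA followed by any 2 bases and GAAA, on either strand in the 250 bases before the RefSeq start (GRCh38.p14).
IFI27: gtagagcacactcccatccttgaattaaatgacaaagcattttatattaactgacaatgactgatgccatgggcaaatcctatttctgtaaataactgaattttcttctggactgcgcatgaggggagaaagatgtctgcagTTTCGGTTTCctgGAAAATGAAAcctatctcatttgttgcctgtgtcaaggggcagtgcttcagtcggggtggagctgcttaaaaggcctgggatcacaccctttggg
IFI44L: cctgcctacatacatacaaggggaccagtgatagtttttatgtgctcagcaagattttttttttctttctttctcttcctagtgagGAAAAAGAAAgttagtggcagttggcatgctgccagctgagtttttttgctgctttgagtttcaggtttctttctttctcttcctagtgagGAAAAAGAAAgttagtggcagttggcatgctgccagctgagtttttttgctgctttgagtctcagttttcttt
Each holds 2 matches. Of 26 interferon-stimulated effectors with a promoter 18 (69.2%) held the element, and of 14 class I presentation genes 6 (42.9%), against 2.27% of the 10660 tested genes with a promoter.

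Antigen presentation rose in both classes. Of 16 class I genes 15 were higher (11 at least 2-fold, median 1.14). NLRC5, the transcriptional activator of class I genes, went from 5.31 to 5.77 up to 7.49 to 7.75; HLA-C rose by 1.31, by a probe set that may bind other HLA genes, the peptide loader TAPBP by 1.55 and B2M by 0.67. The peptide transporter TAP1 rose (1.12) while its partner TAP2 fell, from 10.37 to 10.45 down to 9.74 to 9.88 (-0.62, adjusted p = 2.44e-07). Of 10 class II genes 8 were higher and none lower (median 1.19), with HLA-DPA1 (2.44), HLA-DMA (2.15), HLA-DRA (1.93) and the invariant chain CD74 (1.56). CIITA, their activator, read 4.88 to 5.65 in control and 5.66 to 6.03 with mix 1 (0.51, SE 0.15, adjusted p = 0.00616).

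Of 17 cytokines and chemokines 6 were higher and 5 lower (median 0.17). The macrophage growth factor CSF1 went from 8.86 to 9.19 up to 11.94 to 12.25, and the death ligand TNFSF10 from 5.81 to 6.17 up to 8.72 to 9.22. IL11 (-3.23) and IL24 (-0.86) fell, and IL6 did not pass (-0.01, adjusted p = 0.936). Of 18 NF-kB subunits and regulators, 12 were higher, including the inhibitor NFKBIA (1.48), and 4 lower, including the kinase CHUK (-1.16) and TNFAIP3 (-0.96).

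Several groups of metabolic genes were higher. Of 36 lysosome and autophagy genes 28 rose and 3 fell (median 0.60). The protease CTSD went from 8.05 to 8.58 up to 10.11 to 10.61, the sialidase NEU1 from 8.62 to 8.70 up to 10.15 to 10.32, and the peptidase TPP1 rose by 1.47. TFEB, their transcription factor, changed little (0.23, adjusted p = 0.0131) and did not pass on the A and B arrays alone (adjusted p = 0.128). Of 34 hypoxia and glycolysis genes 24 were higher and 3 lower (median 0.33). The glucose transporter SLC2A3 went from 6.76 to 7.04 up to 9.92 to 10.11, PFKFB4 rose by 1.34 and VEGFA by 1.19, whereas hexokinase HK2 fell by 0.88, EPAS1 by 1.00 and LDHB by 0.42. Lactate dehydrogenase A (LDHA) did not pass (0.10, adjusted p = 0.0829), though it did with trended, robust eBayes (adjusted p = 0.0025). The hypoxia element ACGTGC, on either strand, lay in the promoters of 8 of 31 genes of this list (25.8%), against 7.34% of tested genes. Similar shares were found for amino acid transporters (25% of 16) and common reference genes (23.1% of 13), so the share is not particular to this list.

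Genes of the aryl hydrocarbon receptor battery, which handle xenobiotics, rose in 8 of 9 cases (median 1.28) and fell in none. CYP1B1 read 7.08, 7.08, 7.27 and 6.81 in control and 11.21, 11.10, 11.28 and 11.13 with mix 1, and CYP1A1 went from 6.76 to 7.19 up to 9.65 to 9.93. The receptor AHR itself rose by 1.27 and its repressor AHRR by 1.82, from near background. Of 12 iron genes 7 were higher and 4 lower, with the transferrin receptor TFRC down (-1.43) and the iron exporter SLC40A1 up (1.58). Genes of sterol and fatty acid synthesis changed less (14 of 24 higher, 3 lower, median 0.26), with SCD at 1.25 and HMGCS1 at 1.12. For oxidative phosphorylation 13 of 29 were lower and 2 higher (median -0.10). In the primary cilium list 23 of 27 genes were higher (median 0.61), with the transport subunits IFT27 (1.68) and DYNC2LI1 (1.65), and CEP290 was the only one lower (-0.72).

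Secreted proteins typical of mucosal and luminal epithelium were higher with mix 1, while keratins had no common direction. Of 18 measured trefoil and secretory genes, 13 were higher (11 at least 2-fold, median 1.93) and none lower. Beside TFF1 and TFF3, the disulfide isomerase AGR2 went from 9.03 to 9.19 up to 12.44 to 12.52, and the cystatin CST4 from 7.50 to 7.87 up to 10.95 to 11.34. Each of these 4 genes had a gap of at least 3 log2 units between the groups. Among 14 keratin and luminal identity genes, 6 were higher and 5 lower (median 0.06), with KRT19 at 1.35, CLDN7 at 1.17 and KRT80 at -0.74. CDH1 did not pass the filter (3.98 log2 in control, 4.17 with mix 1). In the tight junction list 7 of 18 were higher and 4 lower: CLDN2 rose by 2.86 and CLDN4 by 1.08, while CLDN1 (-0.99, to below the filter value) and OCLN (-0.95) fell. Of 10 genes of the epithelial-mesenchymal transition 7 were higher and 3 lower; SNAI2 fell from 9.71 to 9.78 to 7.57 to 7.81 and ZEB2 by 1.09, whereas fibronectin FN1 (1.72) and S100A4 (1.67) rose.

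Several lists of the matrix and its receptors had more members higher than lower. Of 23 collagen chains and collagen-modifying enzymes 17 rose and 2 fell (median 0.79). COL6A3 went from 6.28 to 6.54 up to 9.77 to 9.90 and COL6A1 from 7.36 to 7.57 up to 10.50 to 10.73, while COL12A1 fell from 10.14 to 10.45 to 7.91 to 8.47. Of 17 integrin subunits 11 rose (median 0.56), with ITGB8, an activator of latent TGF-beta, at 3.47, and ITGB2, the leukocyte beta chain, was the only one lower (-1.31). Of 10 laminin and basement membrane genes 4 rose, none fell and 6 did not pass (median 0.14), a share higher of 40% against 34.8% of all genes. Of 16 proteases and inhibitors of the plasminogen and matrix metalloprotease systems 12 rose and 3 fell. The inhibitors TIMP4 (3.08), TIMP3 (2.10) and TIMP1 (1.60) were among them, whereas ADAMTS6 (-2.89), ADAMTS1 (-1.60) and urokinase PLAU (-0.91) fell. Among 30 TGF-beta and BMP genes 20 were higher and 4 lower (median 0.47). The inhibitory SMAD7 (2.15) and SMAD6 (1.92) rose, and the activin antagonist FST fell (-2.45).

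Lists of signalling genes had medians from 0.16 to 0.77, and members moved in both directions. Of 13 AP-1 genes 9 were higher, among them FOS (1.49, from near background) and JUNB (0.96), and 3 lower, among them FOSL1 (-1.46) and JDP2 (-1.91, to below the filter value); JUN did not pass (0.03, adjusted p = 0.638). Of 19 KLF and immediate early factors 12 rose and 3 fell: NR4A2 by 3.17, KLF9 by 2.12 and KLF4 by 1.43, while KLF5 fell by 1.34. Of 16 MAPK feedback genes 9 were higher and 6 lower (37.5%, against 32.3% of all genes). SPRED2 (1.47), SPRED1 (1.33), DUSP6 (1.20) and SPRY4 (1.19) rose, and DUSP14 (-1.01), DUSP7 (-0.74), DUSP10 (-0.71) and DUSP1 (-0.48) fell. Of 11 EGFR family genes 6 were higher and 2 lower; the ligand EREG (2.10) and the receptor ERBB3 (1.17) rose, the ligand HBEGF fell (-0.73) and EGFR did not pass (0.06, adjusted p = 0.376). Among 33 other receptor tyrosine kinases and ligands 17 were higher and 8 lower, among them IGF1R (1.30), NRP1 (1.44), AXL (-1.11), FGF1 (-1.95) and FGF5 (-1.78). In the Wnt and Notch list 14 of 28 were higher and 5 lower; the coreceptor LRP5 (2.62), the Notch target HES1 (2.39) and TCF7L2 (1.59) rose, and LEF1 fell (-1.58). The cytoskeletal regulators RHOB (2.34), DIAPH3 (-2.07), MYH10 (-1.89) and ANLN (-1.78) belong to a list of 30 with 7 higher and 13 lower (median -0.03). Higher and lower counts were 9 and 2 of 15 for the BCL2 family, 11 and 3 of 16 for tetraspanins and vesicle coats, 16 and 3 of 25 for ATF4 and unfolded protein response genes, and 8 and 10 of 19 for amino acid transporters. The lower count became 1 for the BCL2 family without control B or mix 1 D, 1 for tetraspanins without mix 1 D and 1 for the laminin list without control D.

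**Figure D4:**
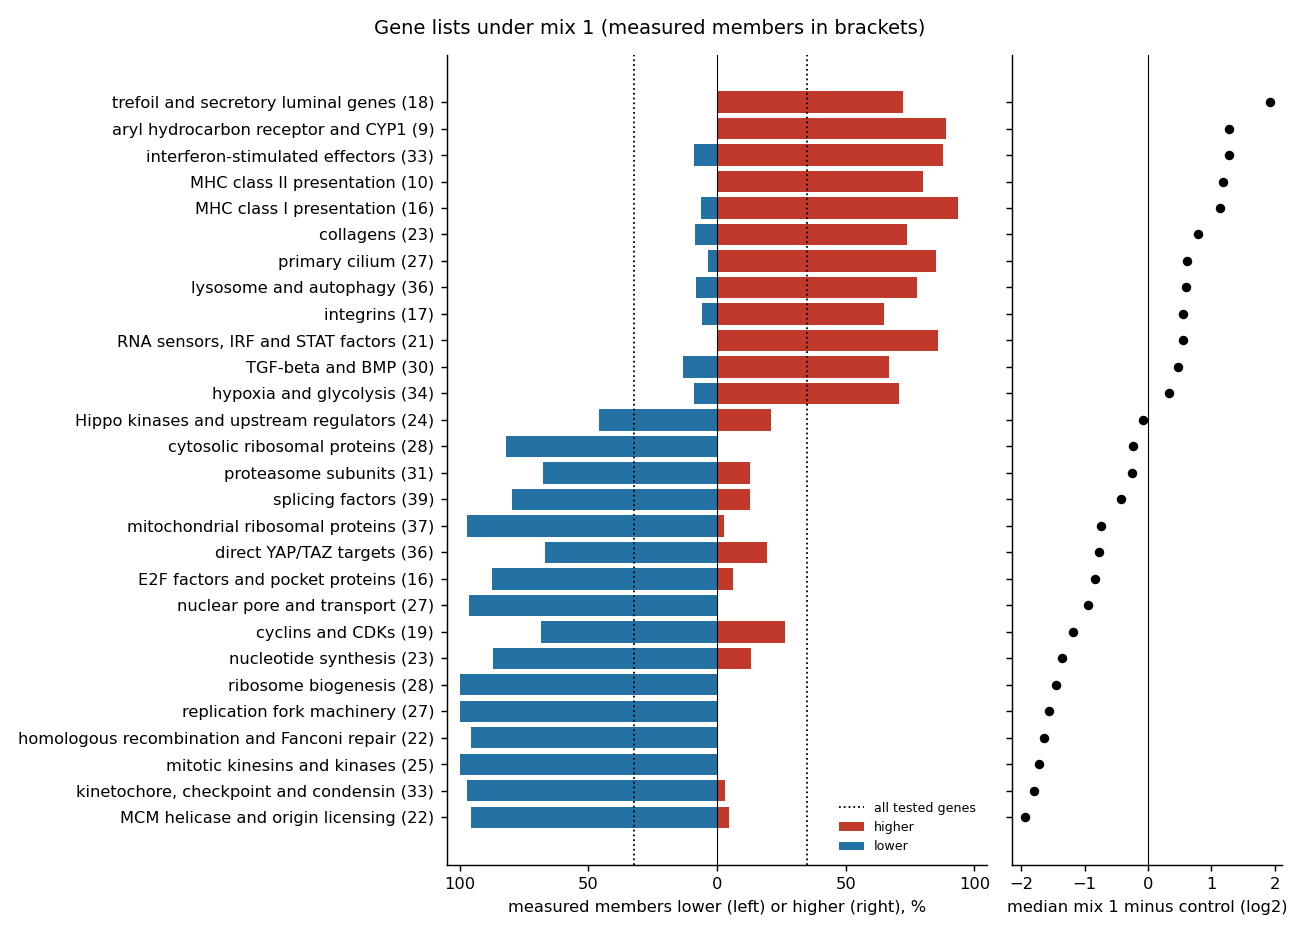
Share of the measured members of 28 gene lists that were lower (blue, to the left) or higher (red, to the right) with mix 1, with the shares over all tested genes as dotted lines, and the median log2 change of each list at right. Lists of replication, mitosis and ribosome biogenesis lie at the lower end, from -1.95, and the trefoil and secretory genes at the upper end (1.93).

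Some genes that rose are also markers of other cell types. The summed level of 16 leukocyte markers was 10.58 to 10.69 log2 in control and 11.90 to 12.02 with mix 1, and 7 of the 11 that passed the filter were higher, namely LYZ (4.19), HLA-DRA (1.93), CD74 (1.56), LAPTM5 (1.22), CD14 (1.12), CD3D (0.93) and CSF1R (0.76). CD3E, CD4, CD8A and ITGAM did not pass. The other 5, PTPRC (4.04 in control, 3.80 with mix 1), TYROBP (4.29 and 4.31), NKG7 (4.18 and 4.28), MS4A1 (4.63 and 4.55) and FCER1G (4.75 and 4.86), were below the filter value. The part of other cells in these results was not tested. For 15 endothelial and fibroblast markers the summed level was 9.41 to 9.55 in control and 10.47 to 10.69 with mix 1. Here PECAM1 (2.08), COL1A1 (2.30) and PDGFRB (0.66) rose, VWF and ENG did not pass, and 9 of the 15 were below the filter value; among these LUM read 3.19 in control and 4.26 with mix 1, KDR 5.30 and 4.56, CDH5 3.97 and 3.92, PDGFRA 4.41 and 4.46 and FAP 3.78 and 3.73. THY1 was at -0.34 with overlapping arrays, and its call was lost in 3 of the leave-one-out fits (adjusted p = 0.0622 to 0.0638). Of 15 common reference genes 3 were higher and 6 lower (median -0.12). Of these 15, 3 were lower by at least 2-fold (the lowest at -1.77), against 8.28% of all genes. Their summed level was 16.58 to 16.63 in control and 16.60 to 16.65 with mix 1. The sum was taken before the log2 step, so the brightest genes weigh most and it can hide such falls.

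Mix 2 was aimed at the same mRNAs. The control arrays are shared by both mixes, so the mixes were tested directly against each other. At an adjusted p below 0.05, 3794 genes (28.7%) were higher and 3302 (25%) lower with mix 2 than with mix 1, or 53.7% in all, and 826 (6.25%) differed at least 2-fold. On their brightest probe sets YAP1 (-0.06, SE 0.14, adjusted p = 0.73) and WWTR1 (-0.12, adjusted p = 0.344) did not differ past the threshold. The other YAP1 probe sets had means of 5.89 and 7.51 with mix 1 and lower ones, 5.415 and 7.31, with mix 2. Those of WWTR1 had means of 8.02 and 5.91 with mix 1 and 8.005 and 6.185 with mix 2. For these further probe sets no test between the mixes is given. The standard reporters differed in size: ANKRD1 read 9.44, 9.38, 9.43 and 9.20 with mix 2, above each mix 1 array by over 2 log2 units (2.50, SE 0.09, adjusted p = 3.14e-11). CCN1 was higher with mix 2 by 2.16 and CCN2 by 1.76, and both stayed below control. Some regulators named above did not pass with mix 2 against control. They were CDKN1A (0.09, adjusted p = 0.224), RB1 (-0.285, adjusted p = 0.0503), TEAD2 (-0.03, adjusted p = 0.74), FOS (0.02, adjusted p = 0.802) and WWC3 (0.125, adjusted p = 0.194). Others passed in the same direction as with mix 1, such as CDKN1B (1.48), SKP2 (-4.39) and MYC (-0.935). Of the 20 largest rises with mix 1, 12 were lower, 1 was higher and 7 did not differ past the threshold with mix 2; of the 20 largest falls, 12 were higher, 4 lower and 4 not past it. These genes were chosen on the mix 1 arrays that this comparison also uses, so the counts are a description. The rises not past it were SPOCK3, PRSS2, CGNL1, LYZ, CYP1B1, LTBP1 and TFF3, and the falls were YAP1, CDCA7, GINS2 and IL11. Several of these calls turned on 1 array. The difference passed for CDCA7 (0.22) without mix 1 A (0.29, adjusted p = 0.0152) or mix 1 B (0.26, adjusted p = 0.0447), for CGNL1 (0.18) without mix 2 D (0.26, adjusted p = 0.0108) and for PRSS2 (-0.14) without mix 2 B (-0.21, adjusted p = 0.0387). For GINS2 (-0.18, adjusted p = 0.086) it passed without mix 1 D, mix 2 A or mix 2 C (adjusted p = 0.0284 to 0.0481), and with the replicate letter as a block (adjusted p = 0.0485). With array weights TFF3 (0.14, adjusted p = 0.0468) and CGNL1 (adjusted p = 0.0236) passed. On the A and B arrays alone YAP1 (-0.365, adjusted p = 0.00556), IL11 (0.30, adjusted p = 0.0234) and CGNL1 (adjusted p = 0.0266) passed, and on C and D alone CDCA7 (adjusted p = 0.0332). For SPOCK3, LYZ, CYP1B1 and LTBP1 the difference passed under none of the alternatives in which they were measured.

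Some genes that fell with mix 1 were near or above their control level with mix 2. ELOVL7, a fatty acid elongase, read 8.92, 8.99, 8.93 and 8.93 in control, 6.40, 6.20, 6.10 and 6.31 with mix 1 and 9.15, 9.11, 9.06 and 9.06 with mix 2. AOX1, an aldehyde oxidase, read 9.95 to 10.07 in control, 7.13 to 7.40 with mix 1 and 9.77 to 9.92 with mix 2. MPC2, a subunit of the mitochondrial pyruvate carrier, went down to 8.91 to 9.10 with mix 1, from 10.77 to 10.86 in control, and was at 11.45 to 11.53 with mix 2. These 3 genes were lower than control with mix 1 and 2.53 to 2.84 log2 higher with mix 2 than with mix 1. CEMIP (-1.08), OXTR (-1.27), SP140 (-0.56) and DAW1 (-2.81) were also lower with mix 1, and 2.15 to 2.62 higher with mix 2 than with mix 1.

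In the other direction stood genes that were lower with mix 2 than with mix 1, most of them higher with mix 1 than in control. The receptor ADGRG1 read 9.45 to 9.60 in control, 11.51 to 11.79 with mix 1 and 8.38 to 8.90 with mix 2, and TNFRSF21 10.84 to 10.97, 12.17 to 12.33 and 9.10 to 9.52. The glypican GPC6 read 8.59 to 8.70 in control, 8.93 to 9.14 with mix 1 and 5.17 to 5.79 with mix 2 (mix 2 minus mix 1 -3.54, SE 0.10, adjusted p = 4.81e-12). FAM3C, PRRG4, TMTC3, OSTM1, MBTPS2 and MANEA had the same order of groups, with changes of 0.24 to 1.58 with mix 1 against control; that of OSTM1 did not pass with its probe sets averaged (0.06, adjusted p = 0.634). On the C and D arrays alone the changes of GPC6 (adjusted p = 0.143), TMTC3 (0.121) and MBTPS2 (0.096) with mix 1 against control did not pass. CMPK1 was lower with mix 1 (-0.49) and lower still with mix 2. HOPX differed the opposite way and was far higher with mix 2, at 8.25 to 8.58. It read 4.10 to 4.51 in control and 4.94 to 5.07 with mix 1, both below the filter value.

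**Figure D5:**
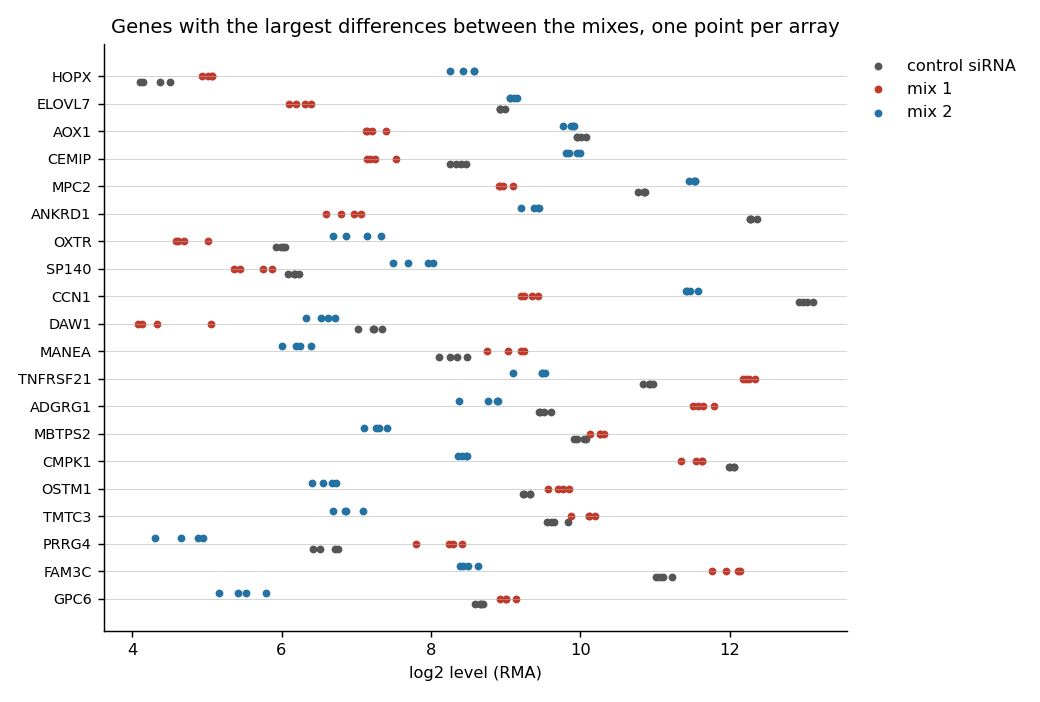
Log2 levels in each control (grey), mix 1 (red) and mix 2 (blue) array for 20 genes with large differences between the mixes, 10 in each direction. They are the largest differences among genes that also passed the threshold in mix 1 against control. Separate mix 1 and mix 2 arrays were a condition of the choice. Control arrays lie close to mix 2 in ELOVL7 and AOX1 and close to mix 1 in GPC6 and MBTPS2.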

How the data were processed

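Gene expression was measured on 12 Affymetrix U133 Plus 2.0 arrays, of which the 8 with control siRNA or mix 1 are described and the 4 with mix 2 entered the fit. The authors deposited 1 table of log2 values, and RMA is the method that the submitters' processing notes name. Which program ran it, and how, is not stated in labels or headers. Since RMA brings arrays to nearly 1 distribution, these values cannot show a change common to all transcripts.

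Of 54675 probe sets, 41097 carried 1 gene symbol in GEO's platform annotation, 1801 several and 11777 none here. Without control probe sets 41091 remained, for 19775 genes. Symbols of 41043 probe sets were updated by gene ID through the RefSeq table of GRCh38.p14. Probe sets with a mean above the 40th percentile (5.46 log2) were kept, and a gene was represented by its brightest probe set. Those with names ending in _s_at, _x_at or _a_at may bind related transcripts. Differences were tested with limma 3.58.1 in R 4.3.3 (3 group means, 9 residual degrees of freedom, default eBayes), two-sided, with Benjamini-Hochberg adjustment over 13225 genes and a threshold of 0.05; SE is that of the fit. The fit was tested on simulated data. Arrays have no read depth; their number limits the precision.

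The members and the 63 gene lists were chosen with earlier results of these data known, so lists are described by counts and medians and carry no test. The genes named were taken from the targets, the 20 highest and 20 lowest changes with separate groups, and standard members of each list. Further sources were up to 4 members per direction and list, and members against their list's majority where there were at most 5. The last source was the 10 highest and 10 lowest differences between the mixes. Not every gene so chosen is named. Members of the 2 marker lists of other cell types were named after their values were seen. Y-linked genes were never named. Motifs were searched in the 250 bases before RefSeq starts (the most upstream start of a gene with several), and 10660 tested genes had a promoter in the table.

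To check whether letters pair arrays, each array's deviations from its group's mean were correlated: same-letter control and mix 1 arrays correlated at 0.37, 0.251, 0.409 and 0.34 for A to D. Control A correlated as well with mix 1 B (0.374), so these values cannot tell letters from a split of A and B against C and D. The letter as a block, other filters, probe set rules, centring, weights and arrays left out were alternatives.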

Additional observations from a re-analysis of the deposited data

Results flagged for a closer look

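Within the groups of 4 arrays, 41 of 632 sets of values of named genes and array measures (6.49%) had 1 array whose gap to the nearest other was larger, as a share of the whole range, than Dixon's 95% critical value. Chance gives about 1 in 20. Values are log2 levels. In control replicate A, the stray values were SUN2 (8.20, others 8.07 to 8.09). Control replicate B stood apart in ADAMTS1 (10.90, others 10.98 to 10.99), ANKRD1 (12.36, others 12.27 to 12.28), ELOVL7 (8.99, others 8.92 to 8.93) and PSMB10 (9.43, others 9.20 to 9.23). It also held there for TAPBP (9.02, others 8.84 to 8.86), TEAD1 (12.47, others 12.51) and TIMP1 (11.09, others 10.88). For control replicate C this held for CGNL1 (4.98, others 5.21 to 5.25), CHUK (9.81, others 9.96 to 9.99), E2F1 (8.46, others 8.61 to 8.64) and MPC2 (10.77, others 10.85 to 10.86). It also held there for PRIM1 (9.90, others 9.82 to 9.83). In control replicate D, the stray values were AXL (13.16, others 13.26 to 13.27), CDKN1A (9.0, others 9.13 to 9.15), EGFR (11.61, others 11.65) and FGF1 (8.03, others 7.97). It also held there for NCAPH (10.37, others 10.43 to 10.44), PFKFB4 (8.15, others 8.24 to 8.25) and TAP2 (10.37, others 10.44 to 10.45). Mix 1 replicate A stood apart in CD3D (6.22, others 6.57 to 6.63), CD8A (5.79, others 5.33 to 5.38), MND1 (7.19, others 6.66 to 6.73), PTGS2 (7.29, others 6.95 to 6.98) and TIMP4 (9.56, others 9.44 to 9.46). For mix 1 replicate B this held for CIITA (5.66, others 5.97 to 6.03), RRS1 (8.46, others 8.77 to 8.81) and ZMAT3 (8.85, others 9.08 to 9.11). In mix 1 replicate C, the stray values were GDF15 (9.98, others 9.81), HMGCS1 (9.27, others 9.40 to 9.42), ITGB8 (8.60, others 9.25 to 9.29) and KLF9 (9.32, others 9.94 to 10.05). It also held there for PLAU (11.10, others 10.86 to 10.89), TCF7L2 (12.28, others 12.43 to 12.44) and TP53I3 (10.10, others 9.82 to 9.84). Mix 1 replicate D stood apart in FOSL1 (8.53, others 8.91 to 8.93), HK2 (10.46, others 10.70 to 10.74) and NOX5 (10.23, others 10.33 to 10.34). For mix 2 replicate B this held for CCN2 (10.28, others 10.40 to 10.42). In mix 2 replicate D, the stray values were MPC2 (11.45, others 11.52 to 11.53) and TNFRSF21 (9.10, others 9.48 to 9.52). The widest gap was that of ITGB8 in mix 1 C, whose 8.60 still lay above the highest control array (5.86). No explanation was tested.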

How the results depend on the processing

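The counts of genes changed by mix 1 stayed within 1.5 times of the reported ones under each alternative. Without 1 array at a time there were 4392 to 4555 genes higher and 4120 to 4268 lower, and 1054 to 1100 and 1075 to 1132 at least 2-fold. The most different counts were those without shared probe sets (3501 higher, 3156 lower), where fewer genes could be tested. With the replicate letter as a block 4762 genes were higher and 4432 lower, and 8847 genes were called in both fits. Among 292 named genes that were followed through the alternatives, no call against control changed with the block. Between the mixes the call of GINS2 did change (-0.18, adjusted p = 0.0485). Between the mixes, leaving out an array gave 3466 to 4078 genes higher and 3086 to 3280 lower with mix 2. A split of A and B from C and D was added after seeing the array medians: on C and D alone 2446 genes were higher with mix 2 than with mix 1, and the cause was not tested. Of these 292 named genes, 276 kept their call and direction against control under all alternatives in which they were measured. Of the others, 13 lost the call under at least 1, 3 turned sign (ORC4 is in both counts) and LDHA gained it. Not every gene was measured in each: 252 were with the 60th percentile filter. Without shared probe sets 217 were unchanged, 1 lost the call and 1 turned sign. Signs turned for ORC4 without shared probe sets (-0.09), and with all probe sets averaged for CTPS2 (-0.109) and UBTF (-0.283). Medians of 4 lists with mixed members turned: TEAD factors (-0.284), lamins (0.196) and amino acid transporters (0.2) without shared probe sets, and histones with a filter at the 60th percentile (-0.212). Of 189 list values (2 counts and a median for each of 63 lists), 88 moved without shared probe sets, 38 with probe sets averaged, 30 with the 60th percentile filter and 23 each without a filter and on the C and D arrays alone. Here a count moved when it changed by over 1.5 times, and a median when it changed by more than the spread between arrays. The larger of the higher and lower counts switched in 4 lists: histones (60th percentile filter, and C and D alone), keratins (C and D alone), and lamins and amino acid transporters (without shared probe sets). Near background, signal limits the size of rises from, and falls to, levels below 5.46 log2.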
